A study of Zea mays with 6 samples.

Results

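knotted1 (kn1), gene ID Zm00001d033859, is 1 of the 46272 gene IDs counted in mRNA libraries of developing maize (Zea mays) ears 2 to 3 mm long. It was chosen by its ID, with the name kn1 as assigned to that row for this work, and its counts were read from all 6 libraries. The count files carry no gene names. The wild-type (WT) group was 3 libraries from plants of the B73 inbred line, and the other group was 3 libraries from ra3;tpp4 double mutants. Plants of both genotypes grew in the field. The labels do not state the mutant alleles, the inbred background of the mutants or the number of ears in a library.

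kn1 encodes a homeodomain transcription factor of the TALE class and gave its name to the KNOX family. In maize its RNA marks shoot and inflorescence meristems and is missing from the sites where a leaf is about to form, and loss of kn1 function leaves inflorescences with fewer branches. The KN1 protein is also known to move from cell to cell. The ra3 gene (RAMOSA3) codes for a phosphatase of trehalose-6-phosphate and makes branch meristems of the ear determinate, and tpp4 codes for a related phosphatase. Since kn1 marks indeterminate meristem tissue, its level in the ear was compared between the genotypes. In whole ears, fewer cells that express kn1 and less kn1 RNA per cell cannot be told apart.

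kn1 was abundant in all 6 libraries. It held 14163, 14472 and 15387 counts in WT replicates 1, 2 and 3, and 11388, 6785 and 10097 counts in ra3;tpp4 replicates 1, 2 and 3. Counts per library over all gene IDs ran from 25815984 to 26752609 in WT and from 19291332 to 25254164 in ra3;tpp4. The counting error of a kn1 level is therefore small, with a coefficient of variation of 0.826% at the mean WT count and 1.03% at the mean mutant count. Reads from PCR copies are not independent molecules, so this error and the intervals below cover counting only.

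Levels were taken as CPM, counts per 1000000 counts over all gene IDs. kn1 stood at 547, 541 and 596 CPM in WT replicates 1, 2 and 3. In the double mutant it stood at 473, 269 and 523 CPM in replicates 1, 2 and 3. ra3;tpp4 replicate 2 was far below the other 5 libraries, ra3;tpp4 replicate 3 lay just under the WT libraries, and ra3;tpp4 replicate 1 lay between. The mean was 561 ± 30.1 CPM over the WT libraries and 422 ± 135 CPM over the mutant libraries (SD, n = 3 each), so the mutant mean was 0.751 times the WT mean and the spread was wider in the mutant. No mutant library reached the lowest WT library, a pattern that 11.4% of all 21127 IDs tested shared, and the exact permutation test gave p = 0.1 (two-sided), the smallest that 3 libraries against 3 allow.

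From high to low, the order of the kn1 level was WT replicates 3, 1 and 2, then mutant replicates 3, 1 and 2. The lowest WT library and the highest mutant library were 17.6 CPM apart, less than the WT standard deviation. Their 95% Wilson intervals for counting error overlapped at the ends, at 532 to 550 CPM for WT replicate 2 and 513 to 534 CPM for mutant replicate 3. Overlap of such intervals does not by itself show that the levels differ by counting error only. No interval for the ratio of this pair was computed. The intervals of WT replicates 1 and 2 overlapped too, at 538 to 556 CPM and 532 to 550 CPM. Replicate 2 had 0.988 times the level of replicate 1 there (95% exact interval 0.966 to 1.01, counting error only). The intervals of WT replicate 3 (587 to 606 CPM), mutant replicate 1 (465 to 482 CPM) and mutant replicate 2 (262 to 275 CPM) met no other.

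**Figure D1:**
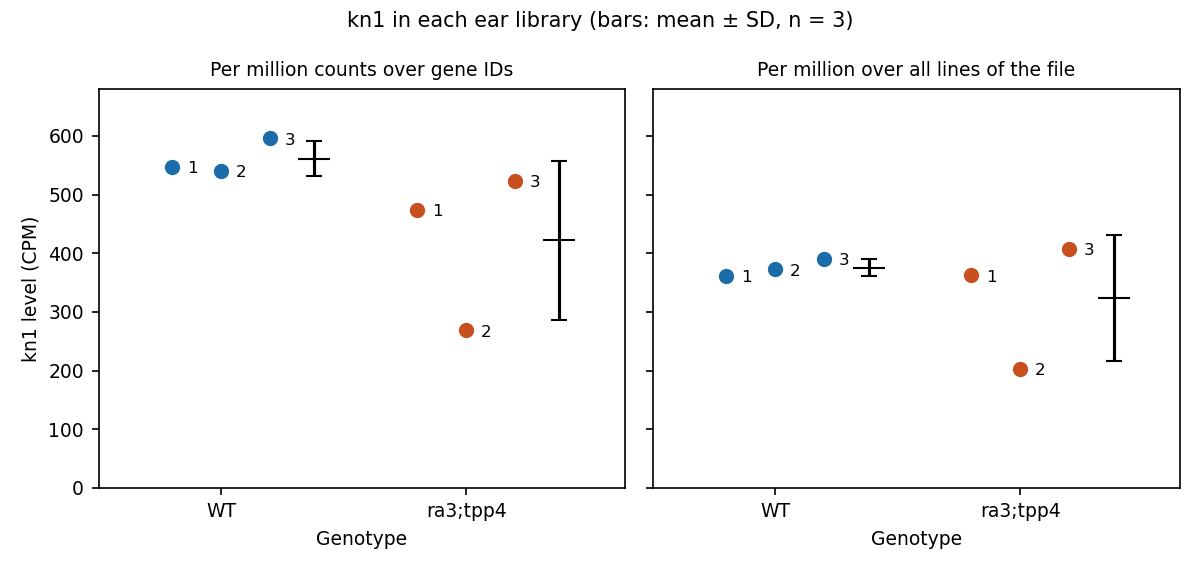
kn1 level by genotype in each library (numbers are replicates), in CPM over gene IDs on the left and over all lines of the file on the right. Bars are mean ± SD of 3 libraries. On the left the 3 mutant libraries lie below the WT libraries, with replicate 2 at 269 CPM, while on the right mutant replicate 1 lies within the WT range and mutant replicate 3 above it.

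The separation of the groups depended on what the counts were divided by. With TMM scaling the lowest WT and the highest mutant library were still apart, by 4.08 CPM, and without the 100 most abundant IDs in the total by 17.0 CPM (exact permutation test, two-sided, p = 0.1 for both). Levels were also taken per 1000000 counts over all lines in the file, which include reads given to no gene. kn1 was then at 362, 372 and 391 in WT and at 362, 202 and 407 in mutant replicates 1, 2 and 3. On this latter scale the groups overlapped, mutant replicate 3 was the highest of the 6 libraries, and the exact permutation test gave p = 0.8 (two-sided). The share of all counts assigned to gene IDs was 65.5% to 68.9% in WT and 75.3% to 77.7% in ra3;tpp4. A level over gene IDs is the level over all lines divided by this share, so the change between these scales follows from the share by construction. Why the share differed between the genotypes was not tested. Relative to the median tested ID, a scale added after the data were seen, kn1 was 27.2, 28.0 and 30.2 times as high in WT and 24.8, 13.4 and 27.4 times as high in the mutant. Here too mutant replicate 3 lay among the WT libraries, and the exact permutation test gave p = 0.2 (two-sided). Mutant replicate 2 was the lowest library on every scale named here.

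The difference in kn1 between genotypes did not pass the test across all gene IDs. The log2 change, ra3;tpp4 over WT, was -0.39 (SE 0.262, edgeR quasi-likelihood test, adjusted p = 0.610, unadjusted p = 0.197). Its 95% interval ran from -1.05 to 0.27, or 0.484 to 1.21 times the WT level, so these libraries leave room for a large fall as well as for a small rise. In the same comparison 310 IDs, or 1.47% of those tested, were called at an adjusted p under 0.05. A larger change in either direction was fitted for 15.6% of tested IDs, and a smaller p for 32.3%.

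Mutant replicate 2 set the size of the kn1 difference. Without it the mutant mean was 498 CPM, 0.888 times the WT mean. The ratio was 0.909 with TMM scaling, 0.891 without the 100 most abundant IDs and 0.918 relative to the median tested ID. Over all lines of the file it was 1.03, so on that scale no fall remained without mutant replicate 2. The edgeR fit without this library gave a log2 change of -0.14 with a 95% interval of -0.30 to 0.03 (adjusted p = 0.435). The call rate in that fit was 2.20%, with 471 IDs called. In contrast, the log2 change was -0.48 without mutant replicate 1 and -0.58 without replicate 3 (edgeR adjusted p = 0.713 and 0.454). Without 1 WT library at a time it lay between -0.41 and -0.34. kn1 was not called in any of these fits.

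**Figure D2:**
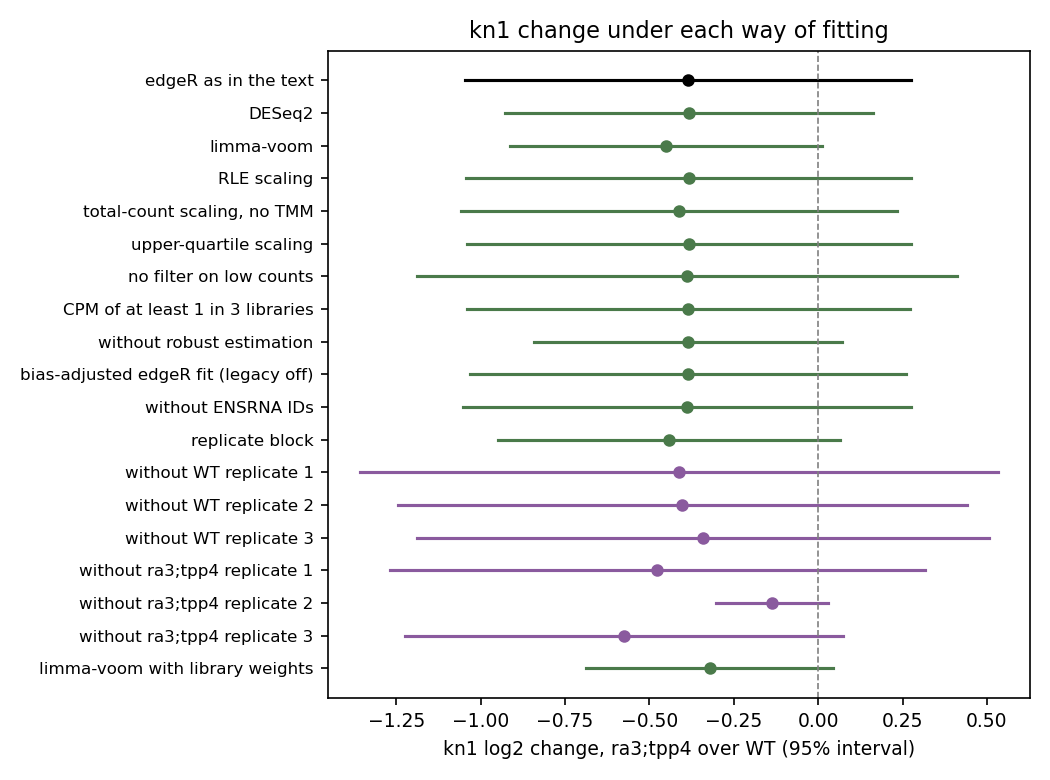
log2 change of kn1, ra3;tpp4 over WT, with its 95% interval under each way of fitting. The dashed line marks no change, and purple marks fits without 1 library. All 19 intervals include 0, and the point nearest to 0, at -0.14, is the fit without mutant replicate 2.

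Within the mutant group kn1 varied far more than counting error gives. The chi-square per degree of freedom of its counts, given library sizes, was 1030 in ra3;tpp4 and 42.1 in WT, where counting error alone gives about 1. Mutant replicate 2 had 0.568 times the kn1 level of replicate 1 (95% exact interval 0.551 to 0.585, counting error only). Replicate 3 had 1.95 times the level of replicate 2 (1.89 to 2.01) and 1.11 times that of replicate 1 (1.08 to 1.14). In WT the largest ratio was 1.10, replicate 3 over replicate 2 (1.08 to 1.13). The coefficient of variation between libraries was 5.36% in WT and 32.0% in ra3;tpp4.

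The wide spread of kn1 rested on mutant replicate 2. With all 6 libraries the biological coefficient of variation, edgeR's estimate of spread beyond counting error, was 0.223 for kn1, against 0.0862 on the fitted trend at its level. Of the 2498 tested IDs with at least 100 CPM, 99.0% had a lower value than kn1, and their median was 0.0753. Without mutant replicate 2 the value for kn1 was 0.0719, against 0.0752 on the trend, and 65.3% of 2496 IDs of at least 100 CPM had a lower one. The standard error of the log2 change was then 0.0768 in place of 0.262.

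**Figure D3:**
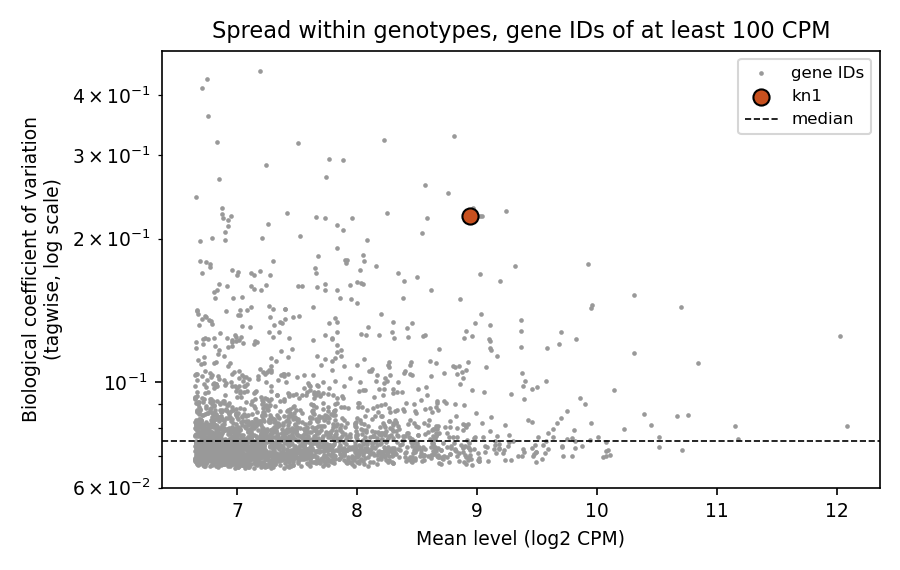
Biological coefficient of variation within genotypes (log axis) against mean log2 CPM for the 2498 tested IDs of at least 100 CPM. The dashed line is their median, 0.0753. kn1, the large point at 0.223, lies above 99.0% of them, and its value is 0.0719 without mutant replicate 2.

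The log2 CPM of kn1 in mutant replicate 2, scaled by TMM, differed from the mean of the other mutant libraries by -0.92. Of 13794 IDs with a mean of at least 10 CPM, 41 (0.297%) lay as far down or farther in that library, kn1 included. In either direction, 142 (1.03%) lay as far or farther. Mutant replicate 2, with 25254164 counts the deepest mutant library, also lay away from the other mutant libraries over all tested IDs. On the first principal component (37.2% of the variance) it was at 49.3, the other mutant libraries at 14.0 and 14.2, and WT between -30.8 and -22.6. On the next component (28.0%) it was at 31.3 beside WT replicate 1 at 29.3, with the other mutant libraries at -26.9 and -33.3 and the other WT libraries near 0, so WT replicate 1 lay away from its group too. In WT, kn1 deviated by -0.08, -0.05 and 0.13 from the mean of the other WT libraries. Of all counts in the file of mutant replicate 2, 5.39% were not aligned, against 1.57% and 4.62% in mutant replicates 1 and 3 and 5.54% to 6.14% in WT. Alignments that were not unique made up 12.9%, between the 15.3% and 11.0% of mutant replicates 1 and 3, and 19.3% to 22.2% in WT. The part of RNA quality or of ear stage in this library was not tested.

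By abundance rank, where rank 1 is the ID with most counts in a library, kn1 was at 108, 113 and 93 in WT replicates 1, 2 and 3. In ra3;tpp4 it was at 164, 494 and 129 in replicates 1, 2 and 3. kn1 was thus near the 100th ID of every WT library and lower in the order in every mutant library. By CPM, 11.4% of all tested IDs had every mutant library below every WT library. The like share by rank was not computed. The mean rank of kn1 was 105 ± 10.4 over WT libraries and 262 ± 201 over mutant libraries (SD, n = 3 each). The exact permutation test on the rank (two-sided) gave its floor of p = 0.1. The rank-abundance curves of the libraries nearly coincide, so this largely restates the separation by CPM and is not separate support. Without mutant replicate 2 the mutant mean was 146.5. Of the IDs with a count, 24820 to 26398 per library, kn1 stood in the top 0.364% to 0.441% in WT. It stood in the top 0.646%, 1.87% and 0.520% in mutant replicates 1, 2 and 3. Counts rise with transcript length, which was not used here, so the rank compares kn1 between libraries and is not a level per length.

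Apart from mutant replicate 2, kn1 levels of 473 to 596 CPM went with ranks of 93 to 164. In mutant replicate 2, rank 494 went with a level 0.479 times the WT mean. The 100th ID of a library was at 559 to 570 CPM in WT and 562 to 597 CPM in ra3;tpp4. In all 6 libraries 84 IDs had more counts than kn1. Another 323 had more than kn1 in mutant replicate 2 and fewer or as many in each of the other 5 libraries. These 323 account for most of the distance between rank 494 and the ranks of kn1 elsewhere.

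**Figure D4:**
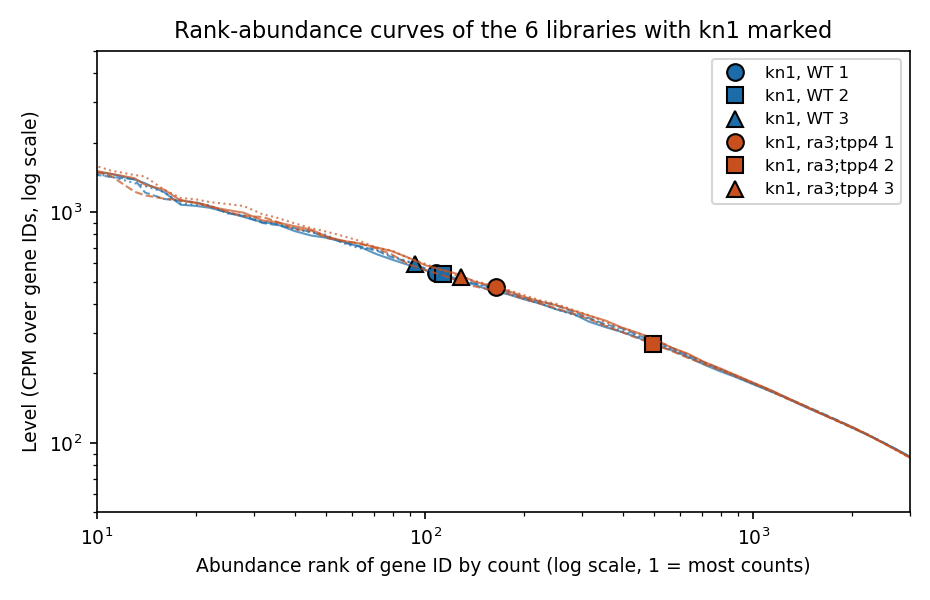
Level (CPM over gene IDs, log axis) against abundance rank (log axis) for the 6 libraries, lines coloured by genotype, with the position of kn1 marked in each. The curves nearly coincide, and kn1 sits at ranks 93 to 164 in 5 libraries and at rank 494 in mutant replicate 2.

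The IDs most like kn1 in pattern shared the low value in mutant replicate 2. Likeness was the root-mean-square difference over the 6 libraries in log2 CPM, each ID centred on its own mean, among 13793 other IDs with a mean of at least 10 CPM. The nearest was Zm00001d021757, at a difference of 0.0579, with 12.9, 13.3 and 13.6 CPM in WT and 11.3, 5.90 and 11.6 CPM in mutant replicates 1, 2 and 3. The next was Zm00001d045576, at 0.0635, with 14.8, 15.8 and 16.6 CPM in WT and 12.3, 7.48 and 13.4 CPM in the mutant. In both, every mutant library was below every WT library. Their log2 changes were -0.44 and -0.49, and neither was called (edgeR adjusted p = 0.480 and 0.336). The choice of these IDs by likeness to kn1 fixes most of these traits in advance, so they are description only.

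A difference of 0.2 or less from kn1 was found for 87 IDs, against a median of 0.395 over all 13793. All 87 were lowest in mutant replicate 2, and in 48 every mutant library was below every WT library. Likeness to kn1 fixes most of this, since replicate 2 dominates the kn1 profile. No source used here names these IDs.

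**Figure D5:**
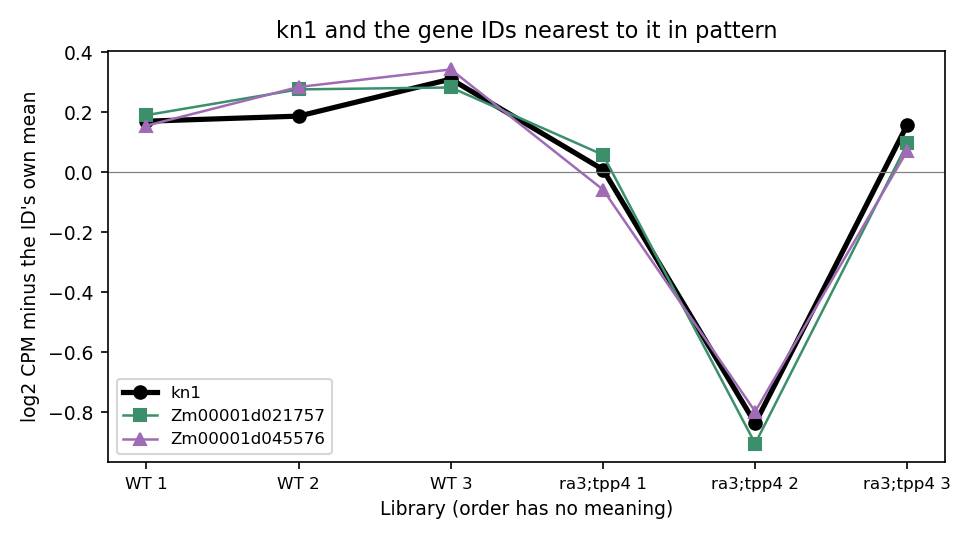
log2 CPM minus each ID's own mean over the 6 libraries for kn1 and the 2 IDs nearest to it in pattern. The 3 lines run close together, as the choice by likeness requires, and each has its lowest point in mutant replicate 2, at -0.84 for kn1.

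Other genes of the KNOX pathway could not be set beside kn1. Apart from kn1, a list of 16 symbols took in KNOX genes, their BEL1-type partners, the gibberellin-inactivating target ga2ox1 and the KNOX repressor rs2. The RefSeq gene table at hand (assembly Zm-B73-REFERENCE-NAM-5.0) held 9 of them, and 0 of these were paired with an ID in the count files, so no values are given for them. The same holds for ra3 and tpp4, so the genotypes were not checked through the mutated genes. It holds too for other markers of the ear, so the tissue was not checked. In that table kn1 lies on chromosome 1 and overlaps 0 other gene entries. knox3, another KNOX gene, lies close by, with 1 gene entry between them.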

How the data were processed

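Each library has 1 deposited file of whole-number counts for the gene IDs, not normalized. Trimmomatic 0.36, HISAT2 2.1.0, HTSeq and the build B73 RefGen_v4 are named in the submitters' processing notes. No strand setting, annotation release or parameter is stated, and reads of near-identical copies may be missing from a count. The 5 HTSeq summary lines were left out of library sizes and the test. They held 22.3% to 34.5% of all counts in a library's file.

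IDs were filtered with filterByExpr (21127 left), scaled by TMM, and tested in 1 fit of genotype over 6 libraries by edgeR 4.0.16 (quasi-likelihood, robust) in R 4.3.3, with Benjamini-Hochberg adjustment over all tested IDs. Standard errors are the log2 change over the square root of F. Log2 CPM used a prior count of 2. The test was checked on simulated data with spread on the fitted trend and no outlying library. That check does not cover a gene with the spread of kn1. Other tools were DESeq2 1.42.0 and limma 3.58.1 (voom). kn1 was named by its ID, and other IDs by likeness in pattern, of which 2 are named. The gene, the lists and the tests were chosen with earlier results of these data known. No pair of libraries of a genotype agreed within sampling noise (chi-square per degree of freedom 5.25 to 15.9), so none was counted as a library deposited in duplicate. The series design calls replicates biological, but their plants are not specified. The p-values of the fits set a genotype difference against the spread between these libraries, estimated with information shared across IDs. The exact permutation p-values count regroupings of the same libraries. Spread between plants cannot be told from either.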

Additional observations from a re-analysis of the deposited data

How the results depend on the processing

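The kn1 difference stayed below 0 and uncalled in all 18 alternatives, which reuse the same counts. Adjusted p ran from 0.380 to 0.782 and unadjusted p from 0.0550 (limma-voom) to 0.338. None of these alternatives took totals over all lines of the file, the scale on which the groups overlapped. The log2 change of kn1 ran from -0.58 to -0.14 over the fits without 1 library and from -0.45 to -0.32 over the others. limma-voom with library weights, chosen after the data were seen, gave -0.32 (adjusted p = 0.394) and the lowest weight, 0.602, to mutant replicate 2. WT replicate 1 had nearly as low a weight, 0.669, and the others had 0.973 to 1.55. Scaling moved the median log2 change of all IDs by at most 0.02.

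The number of IDs called, 310, was 821 in DESeq2, 511 with no filter on low counts and 516 in limma-voom with library weights. It ranged from 58 to 471 without 1 library: 132, 96 and 58 without WT replicates 1, 2 and 3, and 144, 471 and 331 without mutant replicates 1, 2 and 3. The cause was not tested. Mean kn1 levels in WT were 375 per 1000000 counts over all lines and 620 without the 100 most abundant IDs in the total, by construction of the denominator. Without 1 library the mean level was 544 to 572 CPM in WT and 371 to 498 CPM in the mutant, and the mean rank 100.5 to 110.5 and 146.5 to 329. Of the 4 IDs nearest to kn1 in pattern, 3 remained with CPM over gene IDs, and 1 with a mean of at least 50 CPM, since that limit removes the others.

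The labels do not say that a shared replicate number means a shared origin. Deviations from the genotype means correlated at -0.18, -0.12 and 0.15 between libraries numbered 1, 2 and 3, which does not show pairing by number. Between libraries with different numbers the values ran from -0.19 to 0.28, the highest for WT replicate 1 with mutant replicate 2. With the replicate number as a block, 290 IDs were called and the kn1 change was -0.44 (edgeR adjusted p = 0.478).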
